A study of Mus musculus with 4 samples.

Results

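Pax2, Pax8, Wt1, Sall1, Osr1, Lhx1, Gata3, Emx2 and Cited1 encode transcription regulators of the nephron progenitors and the ureteric bud of the embryonic kidney. Their genes were examined for listed peaks of Eya1 in ChIP-seq, in which DNA that is crosslinked to a protein is pulled down with it and sequenced. The 9 genes were chosen by name, and all 9 were found among 21951 protein-coding genes of the mouse annotation (GENCODE release M21). Within 100 kb of an annotated transcription start site (TSS) of these genes, replicate 1 listed 2 peaks and replicate 2 listed 3. The series comprised 2 Eya1 ChIP replicates, 1 input and 1 IgG control, each from kidneys of E13.5 mouse embryos, with 80 kidneys per assay. The kidneys came from knockin mice on a mixed inbred background, whose Eya1 allele carries HA and FLAG tags, and Eya1 was pulled down with anti-FLAG beads. Whole kidneys were used, so each list pools progenitors, ureteric bud, stroma and all other cells of the organ, and the tagged allele was shared by all groups. Each list gives the position of a peak only, with no height, p-value or read count, so depth is unknown and a peak comes with no measure of its strength or error. The control samples were not analysed here.

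The metanephric kidney forms when the ureteric bud, an outgrowth of the Wolffian duct, invades the metanephric mesenchyme, whose cap cells are the nephron progenitors. Signals from the bud keep these progenitors dividing or turn them into epithelial vesicles, which grow into nephrons. Eya1 is a transcriptional coactivator and phosphatase that lacks a DNA-binding domain and is brought to chromatin by partners such as Six2. Osr1 and Wt1 act in the mesenchyme early, Sall1 and Cited1 mark the progenitors, Pax2 and Pax8 act in both the mesenchyme and the duct, Gata3 and Emx2 act in the duct and bud, and Lhx1 acts in the duct and the early nephron. RE1 is the DNA element bound by REST, a repressor that keeps neuronal genes silent in other tissues.

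Of the 9 genes, Sall1 and Emx2 had a peak within 1 kb of a TSS, in replicate 1 alone. Sall1, which encodes a zinc finger protein of the progenitors, also had a replicate 2 peak inside the gene, and Pax2 and Lhx1 had a replicate 2 peak at a distance. Pax8, Wt1, Osr1, Gata3 and Cited1 had no listed peak within 100 kb in either replicate. The sequences under these peaks, shown next, were of 3 kinds. Peaks at Sall1 and Emx2 held CpG-rich DNA, near the start of Sall1 and inside Emx2. The peak next to Lhx1 held CpG-rich DNA at the start of a neighbour, and the Pax2 peak an RE1 element far from the gene.

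The replicate 2 peak at Pax2 is printed whole in the first line, in plus-strand order from mm10, with the RE1 element in capitals. The same element lay under a replicate 2 peak upstream of Lhx1 that fell outside the 100 kb window, and that peak is printed in the second line for comparison.
Pax2, chr19:44692476-44692659: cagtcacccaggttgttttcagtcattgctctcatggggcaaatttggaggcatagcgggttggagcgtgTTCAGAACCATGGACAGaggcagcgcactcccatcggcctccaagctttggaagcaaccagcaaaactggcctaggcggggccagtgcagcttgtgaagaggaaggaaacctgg
Lhx1, chr11:84662073-84662263: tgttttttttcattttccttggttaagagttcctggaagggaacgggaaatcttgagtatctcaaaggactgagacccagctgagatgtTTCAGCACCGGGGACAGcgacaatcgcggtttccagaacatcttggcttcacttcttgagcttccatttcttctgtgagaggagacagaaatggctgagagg

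The remaining sequences lie at the peaks in or next to a gene, and in them every CG pair is in capitals. The first is the whole replicate 2 peak in Sall1, the second the RefSeq promoter of Sall1 that starts nearest to that peak (minus strand, the strand of the gene, GRCm38.p6), the third the 200 bp on the midpoint of the replicate 1 peak at Emx2, and the fourth the whole replicate 2 peak next to Lhx1. Those without a named strand are in plus-strand order.
Sall1 replicate 2, chr8:89042059-89042246: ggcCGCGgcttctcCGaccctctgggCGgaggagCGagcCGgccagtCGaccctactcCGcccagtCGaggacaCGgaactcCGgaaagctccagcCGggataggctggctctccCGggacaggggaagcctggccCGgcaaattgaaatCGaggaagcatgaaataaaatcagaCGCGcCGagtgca
Sall1 promoter, chr8:89042813-89043112: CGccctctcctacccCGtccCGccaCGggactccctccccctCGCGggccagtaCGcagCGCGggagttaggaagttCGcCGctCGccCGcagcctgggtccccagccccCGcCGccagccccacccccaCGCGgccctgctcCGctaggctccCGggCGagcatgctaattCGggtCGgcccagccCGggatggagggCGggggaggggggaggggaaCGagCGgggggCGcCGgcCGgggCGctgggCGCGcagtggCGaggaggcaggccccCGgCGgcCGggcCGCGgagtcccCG
Emx2 replicate 1, chr19:59459439-59459638: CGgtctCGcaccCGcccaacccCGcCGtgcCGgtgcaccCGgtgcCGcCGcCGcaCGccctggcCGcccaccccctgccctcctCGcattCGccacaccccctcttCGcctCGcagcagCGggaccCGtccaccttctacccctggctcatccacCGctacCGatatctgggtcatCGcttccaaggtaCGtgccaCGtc
Lhx1 replicate 2, chr11:84513153-84513347: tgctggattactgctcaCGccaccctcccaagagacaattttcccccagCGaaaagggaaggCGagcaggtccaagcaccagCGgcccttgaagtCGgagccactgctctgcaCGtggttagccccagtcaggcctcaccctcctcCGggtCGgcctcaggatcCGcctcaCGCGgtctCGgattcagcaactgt

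Sall1 (ENSMUSG00000031665.7) lies at chr8:89027235-89044162 on the minus strand of mm10 and has 1 annotated transcript of 4 exons. Its replicate 1 peak covered chr8:89040630-89044371, a width of 3742 bp, and ran from 209 bp upstream of the TSS to 3532 bp into the gene. The peak held exons 1 and 2, with 150 bp of untranslated and 76 bp of coding sequence, and lay otherwise in introns. It ranked 17 by width in its list, in which 99.6% of the peaks were narrower. The replicate 2 peak at chr8:89042059-89042246 was 188 bp wide, which is also the median width of that list. It lay 1.92 kb downstream of the annotated TSS, wholly in the intron after exon 2. The replicate 1 peak contained all 188 bp of it, 5.02% of the wider interval. Sall1 thus had a peak in both lists, but the replicate 2 peak did not count as promoter-proximal by the GENCODE TSS. RefSeq lists 2 further start sites for Sall1, at positions 89043512 and 89042862, and the replicate 2 peak began 616 bp downstream of the latter. The RefSeq promoter at that start held 39 CG pairs at 79.7% GC and lay entirely inside the replicate 1 peak. The replicate 2 peak itself held 18 CG pairs at 64.4% GC. The 200 bp on the midpoint of the replicate 1 peak held 20 CG pairs at 61.0% GC.

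Emx2, a homeobox gene needed in the ureteric bud, was the other gene with a promoter peak. It lies at chr19:59458372-59465357 on the plus strand (ENSMUSG00000043969.4) with 3 annotated transcripts. The replicate 1 peak at chr19:59458748-59460330 was 1583 bp wide, began 376 bp inside the gene and ended 1958 bp inside it. It held the start of an internal transcript, at position 59459519, and covered 468 bp of untranslated and 409 bp of coding sequence, the rest being intron. It was wider than 80.7% of the replicate 1 peaks. The antisense transcript Emx2os starts on the other strand at position 59458635, within 1 kb of the same peak, and positions alone cannot assign the peak to either gene. The 200 bp on the midpoint held 23 CG pairs at 71.5% GC. The RefSeq promoter of Emx2 lay just outside the peak. Replicate 2 had no peak in Emx2, and its nearest was 113 kb upstream, at the promoter of Pdzd8. The maps of Sall1 and Emx2 show these positions against the exons.

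**Figure D1:**
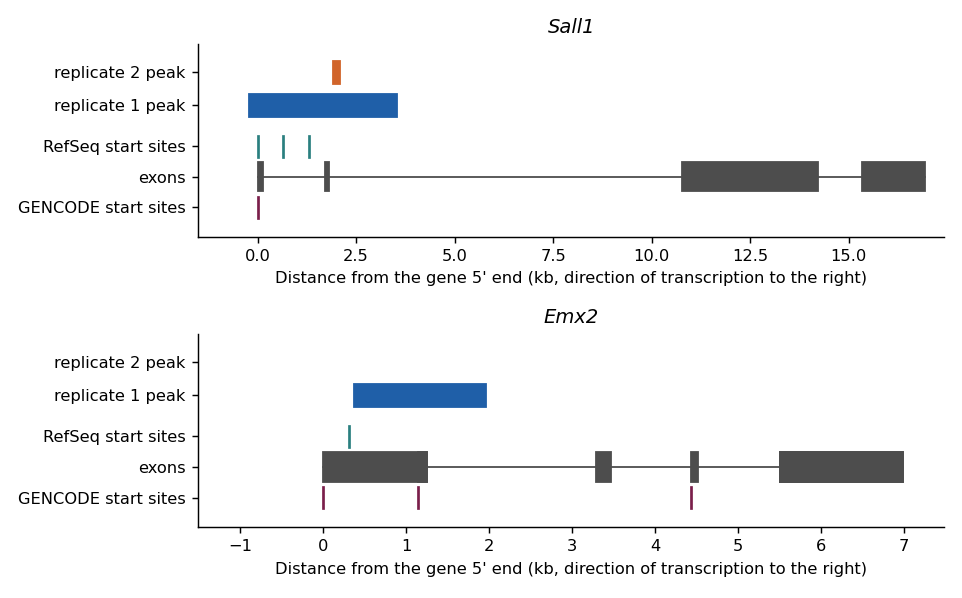
Peaks at Sall1 and Emx2 drawn to scale against distance from the gene 5' end in kb, with transcription to the right. Grey boxes are exons of all GENCODE transcripts, short lines are start sites in GENCODE (below) and RefSeq (above), blue and orange bars are the replicate 1 and replicate 2 peaks. At Sall1 the 188 bp replicate 2 peak lies inside the 3742 bp replicate 1 peak, whereas Emx2 has the 1583 bp replicate 1 peak only.

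Pax2 encodes a paired-domain factor required in both the duct and the mesenchyme for the kidney to form. It lies at chr19:44756045-44837871 on the plus strand (ENSMUSG00000004231.15), and no peak of either list overlapped the gene. The paper reports that Eya1 and Six2 both occupy the Pax2 promoter, but neither list used here held a peak there. The paper's own combined peak set was not checked at this promoter. The replicate 2 peak at chr19:44692476-44692659 was 184 bp wide and lay 63.4 kb upstream of the nearest annotated TSS. It lay wholly in exon 2 of Gm26644, a long intergenic non-coding RNA on the minus strand at chr19:44685811-44695460, and no TSS of any gene was within 1 kb. Pax2 was the protein-coding gene with the nearest 5' end. RE1 matched at all its defined positions, at 44692546 to 44692562 on the plus strand, 13 bp from the peak midpoint. No replicate 1 peak overlapped the site. RefSeq has a Pax2 start site further upstream, at position 44746601, and the peak lay 53.9 kb from it. The paper also reports Eya1, without Six2, at a conserved element about this far upstream of the Pax2 promoter. That element has a REST motif and lacks the active histone mark H3K27ac. Its coordinates were not compared with the replicate 2 peak here.

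Lhx1, a LIM homeobox gene of the duct and the early nephron, lies at chr11:84518284-84525535 on the minus strand (ENSMUSG00000018698.15). The replicate 2 peak at chr11:84513153-84513347, 195 bp wide, was 8.72 kb downstream of the nearest Lhx1 TSS and beyond the end of the gene. It lay 0.175 kb inside Aatf, a neighbouring gene whose product takes part in ribosome assembly, with 56 bp in coding exon. It counted as a promoter peak of Aatf and not of Lhx1, and it held 12 CG pairs at 62.1% GC. The best RE1 alignment in it had 4 mismatches, so it was no RE1 peak. The nearest replicate 1 peak to Lhx1 was 342 kb away, at Acaca.

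The peaks just outside the 100 kb window were few. Upstream of Lhx1, replicate 2 had the peak printed above at 137 kb, 191 bp wide, in no annotated gene, with an RE1 match without mismatch 2 bp from its midpoint, and Lhx1 was the protein-coding gene with the nearest 5' end. A further replicate 2 peak of 126 bp lay at 199 kb, with RE1 at 2 mismatches, and the 5' end of Mrm1 was nearer to it, at 95.1 kb. Upstream of Emx2, replicate 1 had a peak of 2421 bp at 112 kb and replicate 2 a peak of 130 bp at 113 kb, both at the promoter of Pdzd8. Around Pax2, both lists had a peak at the promoter of Slf2, 171 kb downstream of the nearest Pax2 TSS, and replicate 1 had a peak of 546 bp at Hif1an, 193 kb upstream. Gata3 had a replicate 1 peak of 912 bp at the promoter of Taf3, 158 kb upstream. Of these 8 peaks, 6 overlapped another protein-coding gene, and the 2 in no gene were the RE1 peaks upstream of Lhx1. The plot of peaks by gene shows how they fall.

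**Figure D2:**
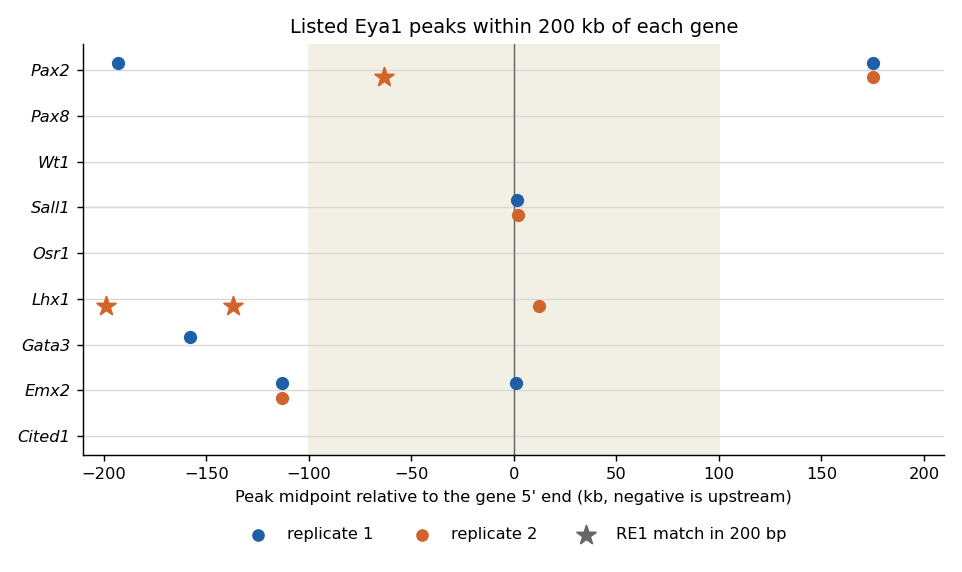
Listed Eya1 peaks within 200 kb of each of the 9 genes, with the peak midpoint on the x axis in kb from the gene 5' end (negative is upstream). Blue marks are replicate 1, orange marks replicate 2, stars have RE1 at no more than 2 mismatches in the 200 bp on the midpoint, and the shaded band is the 100 kb window. Sall1 is the only row with both replicates inside the band, and the stars belong to replicate 2, at Pax2 and upstream of Lhx1.

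Pax8 encodes a paired-domain factor that acts beside Pax2. It lies at chr2:24420560-24475599 on the minus strand (ENSMUSG00000026976.15), and its nearest peaks were 286 kb upstream in both replicates, at the promoter of Cacna1b, 1082 bp and 202 bp wide. Wt1, a zinc finger factor of the mesenchyme and later of podocytes, lies at chr2:105126529-105173616 on the plus strand (ENSMUSG00000016458.14). Its nearest peaks were both at the promoter of Rcn1, 235 kb away in replicate 1 and 236 kb in replicate 2, with widths of 1172 bp and 298 bp. Osr1, among the earliest factors of the kidney mesenchyme, lies at chr12:9570116-9581500 on the plus strand (ENSMUSG00000048387.8). Its nearest peaks were 540 kb upstream at Ttc32 in replicate 1 and 648 kb upstream at Laptm4a in replicate 2, 473 bp and 117 bp wide. For Pax8 and Wt1, the nearest place in both lists was thus the promoter of the same other gene, and for Osr1 it was not.

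Gata3, a zinc finger factor of the duct and bud, lies at chr2:9857078-9890034 on the minus strand (ENSMUSG00000015619.10). Its nearest peak was 158 kb upstream in replicate 1, and in replicate 2 it was 1710 kb upstream at Rbm17, 124 bp wide. Cited1, a coactivator of the least committed progenitors, lies at chrX:102247381-102252181 on the minus strand (ENSMUSG00000051159.16). Both lists had their nearest peak at the promoter of Nono, 820 kb away in replicate 1 and 821 kb in replicate 2, with widths of 1187 bp and 372 bp. The lists held few peaks on this chromosome, with 25 in replicate 1 and 11 in replicate 2, and 2.53% of its 948 protein-coding genes had a promoter peak in either list. The absence of a promoter peak at Cited1 is therefore the usual state of a gene of this chromosome in these lists.

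Across the 9 genes the median distance to the nearest peak was 235 kb in replicate 1 and 236 kb in replicate 2. Over the protein-coding genes on a chromosome with a listed peak, 21755 in replicate 1 and 21768 in replicate 2, it was 83.0 kb and 117 kb. In replicate 1 the order from near to far was Sall1 and Emx2 at 0, Gata3, Pax2, Wt1, Pax8, Lhx1, Osr1 and Cited1. In replicate 2 it was Sall1, Lhx1, Pax2, Emx2, Wt1, Pax8, Osr1, Cited1 and Gata3. Distances of Pax8, Wt1 and Cited1 agreed between the replicates to within 1 kb, and those of Gata3, Emx2 and Lhx1 differed most, since 1 list held a nearer peak that the other lacked. In share of all 21951 genes whose nearest peak was more distant or that had none on their chromosome, Sall1 stood at 81.6% and 84.9% in replicates 1 and 2, and Cited1 at 13.3% and 15.7%.

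**Figure D3:**
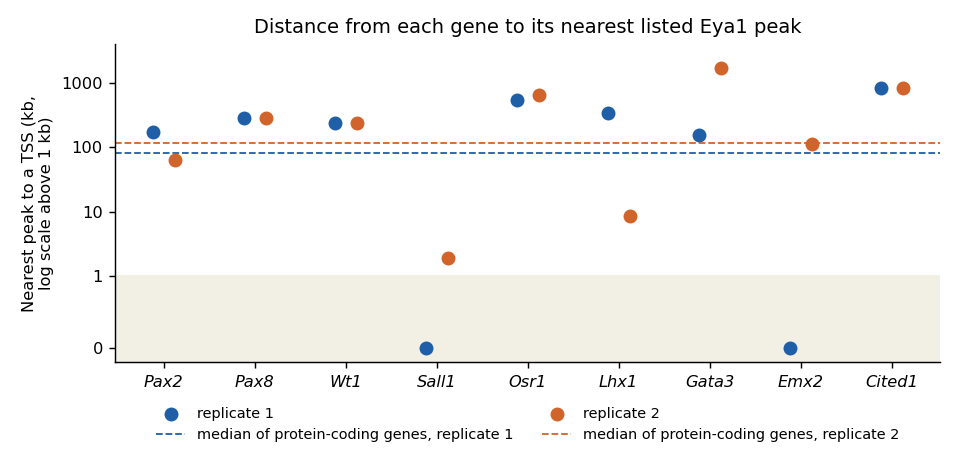
Distance in kb from the nearest TSS of each of the 9 genes to the nearest listed peak, on an axis that is logarithmic above 1 kb and linear below it, for replicate 1 (blue) and replicate 2 (orange). Dashed lines are the medians of protein-coding genes on chromosomes with a listed peak, 83.0 kb and 117 kb, and the shaded band marks 1 kb or less. Sall1 and Emx2 reach 0 in replicate 1, and Pax8, Wt1, Osr1, Gata3 and Cited1 lie above both lines in both replicates.

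The counts were read against all protein-coding genes. A peak within 1 kb of a TSS was listed in replicate 1 for 2 of the 9 genes, against 20.2% of all genes, and in replicate 2 for 0 of 9, against 14.7%. In either list it was 2 of 9 against 23.5%, and in both lists 0 of 9 against 11.5%. By RefSeq start sites, 2 of the 7 genes with an entry had a promoter peak in replicate 1 against 20.5%, and 1 of 7, Sall1, in replicate 2 against 14.9%. Wt1 and Osr1 have no such entry. A peak in the gene body was listed for Sall1 and Emx2 in replicate 1, against 20.4% of all genes, and for Sall1 in replicate 2, against 14.5%, which made 2 of 9 against 23.9% in either list. A peak within 100 kb was listed for 2 of 9 genes in replicate 1 against 53.2%, for 3 of 9 in replicate 2 against 46.4%, and for 4 of 9 in either list against 58.3%. Each count over the 9 genes lay within 3 genes of what the background share would give, and none is read as a result about the 9 genes as a group.

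The counts were also set beside genes with like promoter sequence and surroundings. The promoters of the 9 genes (1 kb on the gene 5' end) had a median GC content of 60.1%, against 54.8% over all genes, and a median ratio of observed to expected CpG of 0.657 against 0.553. Pax2, Wt1, Sall1, Lhx1, Emx2 and Cited1 passed a CpG rule, with GC of at least 50% and a ratio of at least 0.6, which 44.4% of all genes passed. Pax8, Osr1 and Gata3 did not, at ratios of 0.222, 0.47 and 0.481. Among genes that passed, 44.2% had a promoter peak in either list, against 2 of the 6 here. The 9 genes had a median of 0 and at most 2 other protein-coding 5' ends within 100 kb, and the median over all genes was 3. Among the 8758 genes with no more than 2, 45.7% had a peak within 100 kb in either list, against 4 of 9. Over the 8589 of them on a chromosome with a listed peak, the median distances to the nearest peak were 164 kb in replicate 1 and 205 kb in replicate 2. With both limits, 42.8% of genes had a promoter peak, against 2 of 6. Over a wider span, the median number of peaks within 1 Mb was 6 in replicate 1 and 4 in replicate 2 for the 9 genes, and 5 and 5 for all genes. The range was from 1 peak in replicate 1 and 0 in replicate 2 at Gata3 to 10 in replicate 1 at Pax2 and 12 in replicate 2 at Lhx1.

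**Figure D4:**
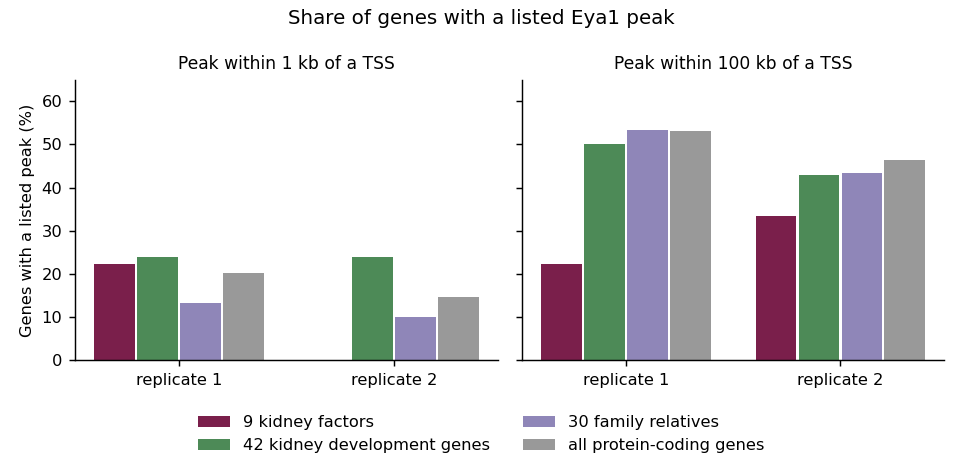
Percent of genes with a listed Eya1 peak within 1 kb (left) and within 100 kb (right) of a TSS, for each replicate. Bars start at 0 and stand for the 9 kidney factors, 42 other kidney development genes, 30 relatives of the 9 from the same families and all 21951 protein-coding genes. The 9 factors have 2 genes with a promoter peak in replicate 1 and none in replicate 2, where the bar is absent.

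RE1 was searched in the 200 bp on each peak midpoint, on both strands, as a 17-base element with at most 2 mismatches. It was found in 232 replicate 1 peaks (5.42%) and 699 replicate 2 peaks (16.7%). The 200 bp window was narrower than the median replicate 1 peak (1069 bp) and wider than the median replicate 2 peak (188 bp). Shares by this window are thus not like measures between the lists. Among peaks more than 1 kb from any TSS, RE1 was in 44.5% of 236 in replicate 1 and 75.6% of 630 in replicate 2. The Pax2 peak and the RE1 peaks upstream of Lhx1 were of this kind. An RE1 peak within 100 kb was listed for none of the 9 genes in replicate 1, against 3.65% of all genes, and for Pax2 in replicate 2, against 9.05%, which made 1 of 9 in either list against 10.3%. The genome around the 9 genes held 173 matches within 100 kb of a TSS, of which 1 had no mismatch, 13 had 1 and 159 had 2. The match without mismatch was the Pax2 site, and it was the only one of the 173 under a peak. Over the genome, peaks of either list covered 30.6% of the 708 matches without mismatch, 2.67% of those with 1 and 0.434% of those with 2. Of the 708, replicate 2 peaks covered 213 and replicate 1 peaks 96, with 92 in both.

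The matches with 1 mismatch that came closest to a TSS of these genes lay under no peak and are printed beside the Pax2 site, in the order of the element, with the mismatched base in capitals.
Pax2, chr19:44692546-44692562: ttcagaaccatggacag
Wt1, chr2:105126178-105126194: Ctcagaacccaggagag
Pax8, chr2:24445596-24445612: ttcagaacctgggaAag
Osr1, chr12:9575223-9575239: ttcagcaTcctggacag
The Wt1 match lay 0.335 kb upstream of a TSS, the Pax8 match 0.288 kb and the Osr1 match 0.782 kb downstream of one. All 3 were thus within 1 kb of an annotated TSS, and the covered Pax2 site was not. For Wt1 that TSS was the 5' end of the gene. For Pax8 and Osr1 it was an internal start, and the match lay inside the gene away from its 5' end. Gata3 and Emx2 had only matches with 2 mismatches, 17 and 18 of them. A match is a sequence property and does not measure binding of REST.

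A panel of 6 motifs was searched by exact letters on both strands in the same 200 bp. These were TCAGNTTC, GGGCGGGG for SP factors, CCGGAAGT for ETS factors, AAGATGGCG for YY1, CCAAT for NFY, and NRF1. TCAGNTTC was entered for Six2 but was not checked against a known Six2 site. Its presence or absence is therefore not read as that of a Six2 site. For the 5 peaks within 100 kb of the 9 genes, the window of the replicate 1 peak at Sall1 held the SP motif. None of the other motifs was in any of the 5 windows. Letters elsewhere in a peak wider than its window were not counted. In all replicate 1 peaks the SP motif was in 15.1% and NFY in 11.4%, and in all replicate 2 peaks in 12.1% and 10.5%. TCAGNTTC was in 2.55% of replicate 1 peaks and 2.59% of replicate 2 peaks. ETS, NRF1 and YY1 were each in less than 2% of the peaks of either list. The absence of letters in 200 bp says nothing of a factor that binds there.

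The widths of the peaks followed their list. Replicate 1 peaks had a median width of 1069 bp, and the peaks at Emx2 and Sall1 were above it, at 1583 bp and 3742 bp. Replicate 2 peaks had a median of 188 bp, and the peaks at Pax2, Sall1 and Lhx1 lay at 184, 188 and 195 bp. By rank the replicate 2 peaks were in the middle of their list, with 47.9%, 49.9% and 52.8% of peaks narrower. At Sall1, the shared position was thus called 3742 bp wide in 1 list and 188 bp in the other, and widths were compared within a list only.

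**Figure D5:**
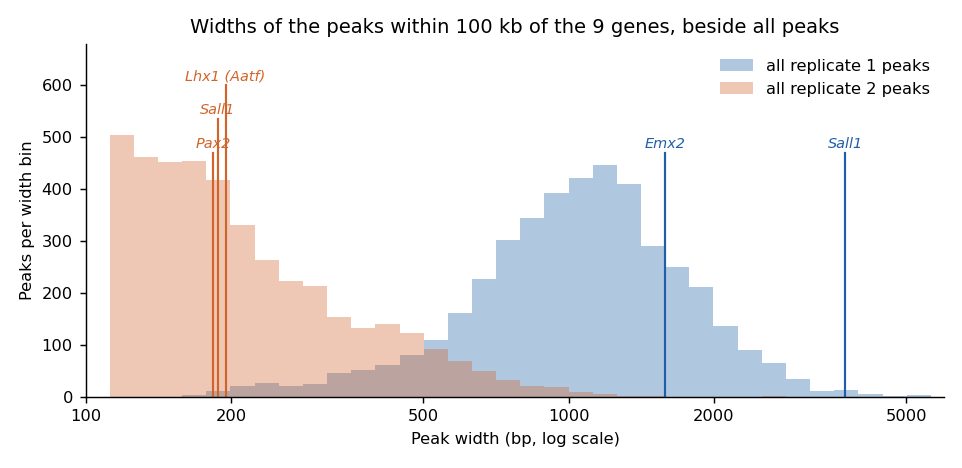
Number of peaks per width bin in bp (log axis) for all replicate 1 peaks (blue) and all replicate 2 peaks (orange), with vertical lines at the peaks within 100 kb of the 9 genes. The lines only mark widths, and their heights carry no value. The replicate 2 peaks at Pax2, Sall1 and next to Lhx1 sit together near the median of 188 bp, and the replicate 1 peak at Sall1, 3742 bp, is in the upper tail.

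Of 42 other genes of kidney development, 15 (35.7%) had a promoter peak in either list. Over all genes it was 23.5%, and over genes that passed the CpG rule 44.2%. Of the 42, 31 passed the rule, and 10 had a promoter peak in replicate 1 and 10 in replicate 2. Those with a promoter peak in both lists included Foxd1, a factor of the stroma, Foxc1 and Foxc2, which pattern the early mesenchyme, and Tcf21, a factor of the mesenchyme and podocytes. None of the 9 genes had this pattern by GENCODE start sites. Within 100 kb of a TSS, 24 of the 42 (57.1%) had a peak in either list, against 58.3% of all genes.

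Of 30 relatives in the same gene families, 5 (16.7%) had a promoter peak in either list, against 23.5% of all genes. A peak within 100 kb was listed for 18 (60.0%), against 58.3%, and 17 passed the CpG rule. Of the relatives of Pax2 and Pax8, the nearest peaks were at Pax5, a factor of B cells and the midbrain, with a replicate 1 peak of 1666 bp and a replicate 2 peak of 207 bp, 0.394 kb from the TSS. Lhx3, a LIM homeobox gene of the pituitary and motor neurons, was the other relative with a promoter peak in both lists, 501 bp and 206 bp wide. Both Lhx3 peaks held RE1 without mismatch, but in replicate 1 the match was not within the 200 bp on the midpoint. Lhx5, the closest relative of Lhx1 and a gene of the forebrain, had a peak in both lists 7.38 kb and 7.4 kb upstream, 231 bp and 197 bp wide, and both held RE1 without mismatch. Lhx1 itself had no RE1 peak within 100 kb, and the RE1 peak 137 kb upstream was listed in replicate 2 alone. Cited2, which unlike Cited1 is on an autosome, had a replicate 1 peak of 2144 bp at its TSS, and its nearest replicate 2 peak was 224 kb away. Sall2, with a replicate 2 peak of 154 bp 0.164 kb from its TSS, and Gata6, with a replicate 1 peak, complete the 5 and were named after their values were seen. For Osr2, Emx1 and Gata2 the nearest peaks of both lists were over 100 kb away, at promoters of other genes, with distances of 140 kb and 140 kb for Osr2, 118 kb and 118 kb for Emx1, and 109 kb and 149 kb for Gata2.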

How the data were processed

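Eya1 ChIP-seq peak lists of 2 replicates were used, and groups came from the sample titles. The authors aligned reads with Bowtie to mm10 per their methods, while the processing notes name HISAT2 and mm10. Peaks were called with MACS against input and against IgG, and the paper used the peaks common to both. The sources used here do not state whether the lists hold those common peaks, and give no cutoff per list. The deposited lists hold 4277 peaks for replicate 1 and 4175 for replicate 2, as positions in 3 columns and no score, depth or p-value. Wide and narrow peaks can come from different cutoffs, fragment sizes or depths, none of which can be checked from positions.

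Distances ran from a peak edge to the nearest TSS of any transcript of a gene in GENCODE M21 (132666 transcript starts), and are 0 where the peak holds the TSS. Overlap needed 1 bp, and coordinates are 1-based. No peak lay beyond a chromosome end. Promoter sequences (250 bases before to 50 after a start) were from RefSeq, GRCm38.p6, and matched 7 of the 9 genes. RE1 is the 17-base consensus of REST. Python 3.11.15, numpy 2.4.6, pandas 2.3.3, pysam 0.24.0 and matplotlib 3.10.9 were used, and bedtools 2.31.1 gave the same 4444 and 3234 genes with a promoter peak in replicates 1 and 2. The searches were tested on simulated data.

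The 9 genes, both comparison lists and all rules were chosen with earlier results of these data known. No test was run, since lists of positions give no spread between samples. Genes named are the 9, the neighbours at their peaks, the genes of the kidney list with promoter peaks in both lists, of which not all are reported here, and the nearest relatives. RefSeq start sites, promoter peaks of either list against any peak of the other, the backgrounds by CpG, neighbours and chromosome, and the counts within 1 Mb were added after the values were seen.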

Additional observations from a re-analysis of the deposited data

How the results depend on the processing

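Of 30 alternatives to 6 values, 22 left the value as reported or close to it, and 8 moved it. Genes with a promoter peak numbered 2, but 1 (Emx2) when the peak midpoint had to lie within 1 kb, and from 0 to 2 when each replicate was left out. Genes with a gene-body peak numbered 2, but 1 (Sall1) for peaks over 1 kb from a TSS, and from 1 to 2 with a replicate left out. Genes with a peak within 100 kb numbered 4, with 3 at 50 kb and 5 at 200 kb, and from 2 to 3 with a replicate left out. The RE1 count was 1, and from 0 to 1 with a replicate left out. Shared promoter peaks numbered 0, but 1 (Sall1) when the promoter peak of either list was set against any peak of the other, and 1 by RefSeq start sites, both added after the values were seen. The median width of the promoter peaks, 2662.5 bp over Sall1 and Emx2, was the same for the nearest peak of each gene. No paired analysis was possible because the results come from no test. Peak positions without depth cannot show whether a peak missing from a list was weak or absent.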
